A study of Homo sapiens with 6 samples.

Results

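The FOS and JUN genes encode the subunits of AP-1, and together with EGR1, IER2 and IER3 they belong to the immediate early genes, the first genes that cells switch on after a stimulus. In all, 10 genes of this kind were picked by name (FOS, FOSB, FOSL1, FOSL2, JUN, JUNB, JUND, EGR1, IER2 and IER3) and followed in HepG2 cells with and without knockdown of ARHGEF2. They are 10 of the 27605 genes in the deposited table, and all 10 were among the 12291 tested genes, those whose mean over the 6 libraries reached 0.5 FPKM. FPKM (fragments per kilobase of transcript, scaled to the mapped fragments of the library) is a level per length, so that levels of different genes can be set side by side.

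RNA was sequenced from cells labelled HepG2, an established cell line from a human liver tumour, in 2 groups of 3 libraries. The control cells (shNC, genotype labelled WT) carried a control hairpin and the knockdown cells (shARHGEF2, genotype labelled ARHGEF2 knockdown) carried a hairpin against ARHGEF2, a guanine nucleotide exchange factor that activates the small GTPase RhoA. Delivery was by lentivirus, both groups were grown in DMEM with serum, and no stimulus is named for either. How many hairpins the knockdown libraries represent, and whether the 3 libraries of a group came from separate cultures, is not stated, so the p-values measure the spread between these libraries, which may be technical.

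AP-1 is a dimer of basic leucine zipper (bZIP) proteins. JUN proteins pair with each other or with FOS proteins, while FOS proteins need a JUN partner, and the dimer binds the TPA response element TGACTCA or the related cAMP response element (CRE) TGACGTCA. Transcription of the immediate early genes is switched on within minutes by mitogen-activated protein kinases acting on factors already in place, among them SRF on CArG boxes with its partners of the ELK family and CREB on CREs, and the mRNAs are mostly short-lived. In liver, JUN is known for its part in hepatocyte proliferation and regeneration. In bulk RNA, fewer cells expressing a gene and less of its RNA per cell cannot be told apart.

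The promoters are shown because such elements are known from immediate early genes and the choice by name did not use them. The 250 bases before the RefSeq transcription start (GRCh38.p14) were searched on both strands for 8 of the 10 genes, and FOSL1 and IER3 were not among the RefSeq entries used here. TGACG, the 5-base core of the CRE, was found in 8 of 8 promoters, against 21.2% of all 34943 RefSeq promoters of that length. The CArG box was found in 1 promoter, EGR1 (1.16% of all promoters), at bases -105 to -96 and -83 to -74 from the start. The full CRE TGACGTCA, which holds TGACG on each strand, was found in 1 promoter, JUND, at bases -200 to -193 (1.63% of all promoters). TGACTCA was found in 0 of 8 (4.22% of all promoters). For this and every other motif, absence says only that the letters are not in this window of 250 bases, and sites further away were not searched. A TATAAA motif stood at bases -33, -30 and -31 in FOS, FOSB and JUNB (10.8% of all promoters). Below, 4 of these promoters are printed 5′ to 3′ on the strand of the gene: the lowest and the most abundant of the AP-1 genes among those with an unadjusted p under 0.05, and the promoters with a CRE and with CArG boxes. Capitals mark the CArG boxes, TATAAA, the full CRE and TGACG, which stands as its reverse complement where it lies on the other strand. The FOS stretch, chr14:75278578-75278773 (+), ends before the earlier start that GENCODE 29 gives for the gene, so its TATAAA is not in it. The others are chr19:12791236-12791485 (+) for JUNB, chr19:18281623-18281872 (-) for JUND and chr5:138465229-138465478 (+) for EGR1.
FOS: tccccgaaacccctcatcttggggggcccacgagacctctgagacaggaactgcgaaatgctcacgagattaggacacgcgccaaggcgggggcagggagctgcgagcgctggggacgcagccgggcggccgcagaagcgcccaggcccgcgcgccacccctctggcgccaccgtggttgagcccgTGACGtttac
JUNB: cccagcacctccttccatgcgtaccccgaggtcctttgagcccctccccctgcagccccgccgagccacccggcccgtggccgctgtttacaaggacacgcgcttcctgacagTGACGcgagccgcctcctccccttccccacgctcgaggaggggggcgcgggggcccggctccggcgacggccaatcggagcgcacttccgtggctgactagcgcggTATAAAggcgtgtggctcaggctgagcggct
JUND: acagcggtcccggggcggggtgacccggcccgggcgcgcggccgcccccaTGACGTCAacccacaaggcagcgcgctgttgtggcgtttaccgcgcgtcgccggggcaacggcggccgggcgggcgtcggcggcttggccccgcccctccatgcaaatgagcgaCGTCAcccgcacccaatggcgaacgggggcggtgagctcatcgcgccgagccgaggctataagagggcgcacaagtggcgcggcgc
EGR1: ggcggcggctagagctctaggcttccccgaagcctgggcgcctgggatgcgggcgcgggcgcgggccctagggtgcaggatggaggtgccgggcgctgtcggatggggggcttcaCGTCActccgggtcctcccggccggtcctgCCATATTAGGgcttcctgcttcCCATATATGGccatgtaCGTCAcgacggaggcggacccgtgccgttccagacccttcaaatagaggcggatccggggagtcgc

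The depth of the libraries was estimated from the spacing of low FPKM values at between 19725000 and 23475000 read pairs. ARHGEF2 itself was listed at 13.0, 14.4 and 13.9 FPKM in the shNC libraries and at 4.25, 4.004 and 4.82 FPKM in the shARHGEF2 libraries. It fell by 1.47 on the log2(FPKM + 1) scale (SE 0.11, limma, adjusted p = 0.00244). Most defining transcripts of liver cells were at or near 0 where listed. Of 18 hepatocyte markers, 10 were in the table and 1, VTN, reached a mean of 0.5 FPKM (5.51 to 6.60 FPKM), while AFP, HNF4A and APOA1 stayed at or below 0.0703, 0.0956 and 0.248 FPKM in every library. The summed level of the 10 markers was 6.02 to 6.24 FPKM in shNC and 6.70 to 7.70 FPKM in shARHGEF2, and its part in the results was not tested. KRT7 was at 898 to 1124 FPKM, KRT19 at 60.4 to 75.7 FPKM and VIM at 104 to 188 FPKM, whereas EPCAM and CDH1 were near 0. These markers go against the HepG2 label in all 6 libraries, and the name HepG2 is used here as the label only. Libraries were compared by the root mean square difference over all tested genes on the log2(FPKM + 1) scale. shNC replicate 3 was nearer to shARHGEF2 replicate 3 (0.315) than to shNC replicates 1 and 2 (0.324 and 0.361). It was still the nearest of all libraries to each of these 2 controls. shNC replicate 1 was likewise nearer to shARHGEF2 replicates 1 and 3 (0.363 and 0.362) than to shNC replicate 2 (0.366). The distances thus do not single out shNC replicate 3. Results are given with and without this library, whose levels for the 10 genes are described below.

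None of the 10 genes passed the test over all genes, and for most of them the values of the groups overlapped. By limma on log2(FPKM + 1), 0 of 10 had an adjusted p under 0.05, against 0.277% of all tested genes (0.195% higher and 0.0814% lower in shARHGEF2). An unadjusted p under 0.05 was reached by 4 of 10 (FOS, JUNB, JUND and IER3, all higher in shARHGEF2), against 13.7% of all tested genes in either direction and 8.1% in the higher and 5.55% in the lower direction. The fitted change was positive for 8 of 10, against 49.6% of all tested genes, and negative for EGR1 and IER2. Every knockdown library stood above every control library for JUND and IER3 (2 of 10, against 11.3% of all tested genes) and below for EGR1 (1 of 10, against 9.17%), and the groups overlapped for the other 7. Over all tested genes the groups were apart for 20.5%. The 10 genes were chosen with earlier results of these data known, so nothing is read from the comparison of these shares.

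**Figure D1:**
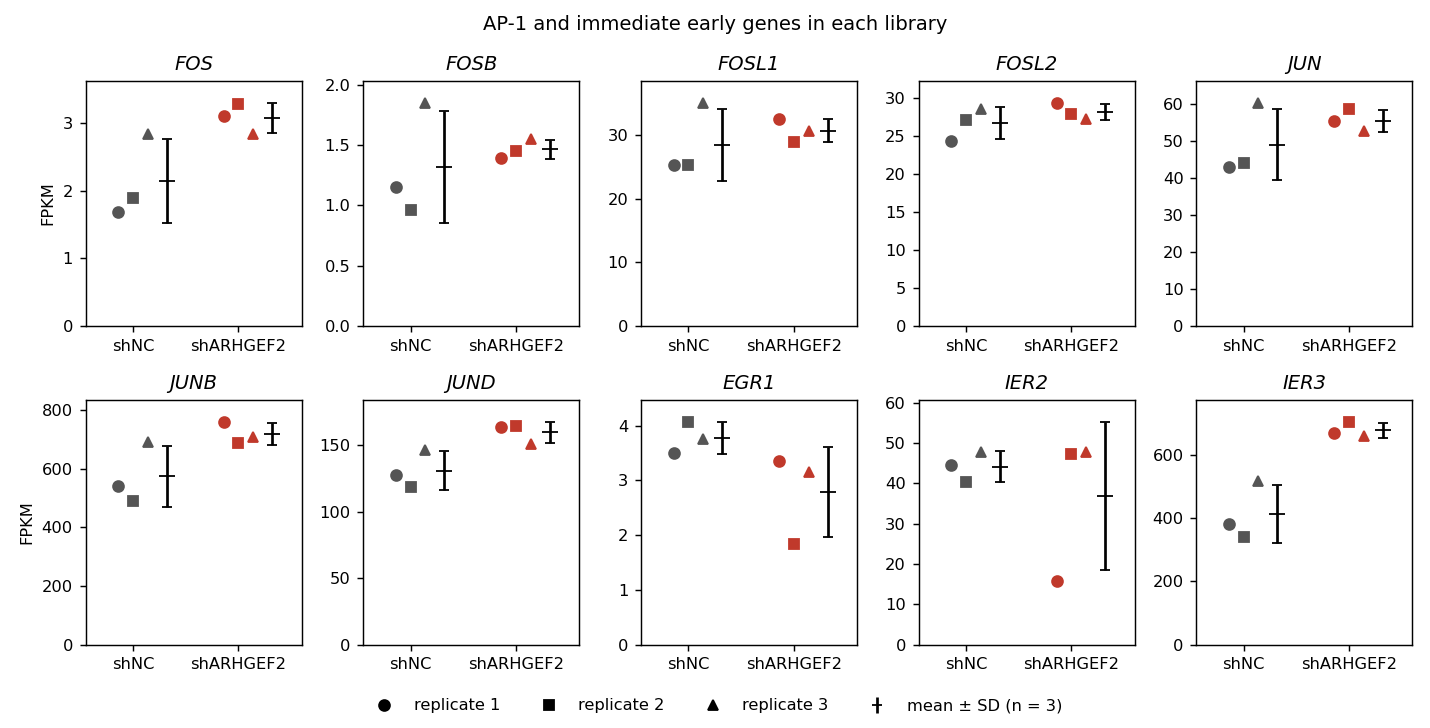
FPKM of the 10 genes in each of the 6 libraries, 1 panel per gene with its own linear axis from 0. Points are libraries, with circles, squares and triangles for replicates 1, 2 and 3, and bars give the mean ± SD of each group (n = 3). The groups are apart for JUND, IER3 and EGR1, and the shNC triangle (replicate 3) lies above the other shNC libraries in 9 of the 10 panels.

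The levels themselves covered a wide range. JUNB and IER3 were among the most abundant transcripts of these cells, with means over all libraries of 647 and 545 FPKM, each above 99.5% of the tested genes. JUND followed at 145 FPKM, JUN at 52.3, IER2 at 40.6, FOSL1 at 29.6 and FOSL2 at 27.4 FPKM. EGR1 (3.28 FPKM), FOS (2.61 FPKM) and FOSB (1.39 FPKM), the members best known for brief, strong induction by serum, were the lowest. Of the 9 steps in this order, the ranges over the 6 libraries were apart for IER3 over JUND, JUND over JUN and FOSL2 over EGR1, and neighbours at the other 6 steps overlapped. Compared within each library, FOS was above FOSB in all 6 (ratio 1.47 to 2.26). Each of the remaining overlapping steps held in 5 of 6 libraries.

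Among the JUN proteins, JUNB is a partner of FOS that is often set against JUN in its effects on growth. JUNB was listed at 541, 491 and 691 FPKM in shNC and at 760, 688 and 709 FPKM in shARHGEF2. shNC replicates 1 and 2 lay below the knockdown range, and shNC replicate 3 lay inside it, just above the lowest knockdown library. The mean went from 574 ± 104 to 719 ± 37.2 FPKM (SD, n = 3), a ratio of 1.25. The fitted log2 difference was 0.34 (SE 0.13, 95% interval 0.05 to 0.62), with an adjusted p of 0.294 in limma and an exact two-sided permutation p of 0.2, where 0.1 is the smallest that 3 libraries against 3 allow.

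JUND, the JUN protein that most cells keep at a steady level, was listed at 128, 118 and 146 FPKM in shNC and at 164, 164 and 151 FPKM in shARHGEF2. All knockdown libraries were above all control libraries, with shNC replicate 3 nearest to them. The mean level was 131 ± 14.4 FPKM in shNC and 160 ± 7.84 FPKM in shARHGEF2 (SD, n = 3). On the log2(FPKM + 1) scale this was a difference of 0.29 (SE 0.10, interval 0.06 to 0.51, adjusted p = 0.255 in limma, exact permutation p = 0.1). JUND spread little within groups, since 31.3% of tested genes spread less.

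JUN, the founding AP-1 subunit and the substrate of the JNK kinases, was listed at 42.8, 44.1 and 60.2 FPKM in shNC and at 55.3, 58.6 and 52.6 FPKM in shARHGEF2. Its highest value of all 6 was in shNC replicate 3, and the groups overlapped. The log2 difference was 0.19 (SE 0.13, interval -0.11 to 0.49, limma, adjusted p = 0.583). It was 0.10 without shNC replicate 1, 0.12 without shNC replicate 2 and 0.34 without shNC replicate 3. The summed level of the 3 JUN genes was 711, 653 and 898 FPKM in shNC and 979, 911 and 912 FPKM in shARHGEF2, with no overlap. JUNB made up 76.1% ± 0.918 of that sum in shNC and 77.0% ± 1.25 in shARHGEF2 (SD, n = 3), JUND 17.5% and 17.1%, and JUN 6.49% and 5.95%, so the make-up of the JUN family overlapped between the groups.

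FOS, the partner of JUN in the classical AP-1 dimer, was listed at 1.69, 1.88 and 2.84 FPKM in shNC and at 3.10, 3.27 and 2.84 FPKM in shARHGEF2. The lowest knockdown library and the highest control library, both of them replicate 3, were nearly equal, and the other control libraries were lower than every knockdown library. Mean levels were 2.14 ± 0.617 and 3.07 ± 0.217 FPKM (SD, n = 3), a ratio of 1.44. The log2(FPKM + 1) difference, which understates the change of such a low gene, was 0.39 (SE 0.15, interval 0.04 to 0.74, adjusted p = 0.319 in limma, exact permutation p = 0.2).

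FOSB, the family member known from long-lasting responses of neurons, was at 1.15, 0.959 and 1.84 FPKM in shNC and at 1.39, 1.45 and 1.55 FPKM in shARHGEF2. The control libraries enclosed the knockdown libraries on both sides, and the log2 difference of 0.11 (SE 0.15, interval -0.24 to 0.45, limma, adjusted p = 0.830) turned to -0.0068 without shNC replicate 2, and was 0.06 without shNC replicate 1 and 0.26 without shNC replicate 3.

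The remaining FOS genes, FOSL1 and FOSL2, encode the FRA proteins, which lack the strong activation domain of FOS. FOSL1 was listed at 25.3, 25.2 and 35.0 FPKM in shNC and at 32.6, 28.9 and 30.7 FPKM in shARHGEF2. FOSL2 was listed at 24.4, 27.1 and 28.5 FPKM in shNC and at 29.3, 27.9 and 27.3 FPKM in shARHGEF2. The groups overlapped for both, and FOSL1 was highest of all in shNC replicate 3. Their log2 differences were 0.12 (SE 0.14, interval -0.19 to 0.43) and 0.08 (SE 0.09, interval -0.14 to 0.29), with adjusted p of 0.767 and 0.787 in limma. With 1 library left out FOSL1 lay between 0.04 (without shNC replicate 1 or 2) and 0.27 (without shNC replicate 3), and FOSL2 between 0.02 (without shNC replicate 1) and 0.13 (without shNC replicate 3). FOSL2 was the steadiest of the 10, as 13.6% of tested genes spread less within groups.

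Within the FOS family, FOSL1 and FOSL2 held nearly all of the summed FPKM in both groups. FOSL1 made up 48.4% ± 2.79 in shNC and 48.4% ± 1.29 in shARHGEF2, and FOSL2 made up 45.8% ± 3.68 and 44.4% ± 0.864 (SD, n = 3). FOS made up 3.22%, 3.42% and 4.16% in the shNC libraries and 4.67%, 5.32% and 4.56% in the shARHGEF2 libraries, with no overlap. The summed FOS family was 52.5, 55.2 and 68.2 FPKM in shNC and 66.4, 61.5 and 62.3 FPKM in shARHGEF2, and these overlapped. JUN genes thus outweighed FOS genes by a ratio of 13.6, 11.8 and 13.2 in shNC and of 14.7, 14.8 and 14.6 in shARHGEF2. The ratio was above the control range in every knockdown library. This ratio, the JUN sum and the share of FOS are descriptions for which no test was made. For scale, the groups were apart for 20.5% of all tested genes.

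**Figure D2:**
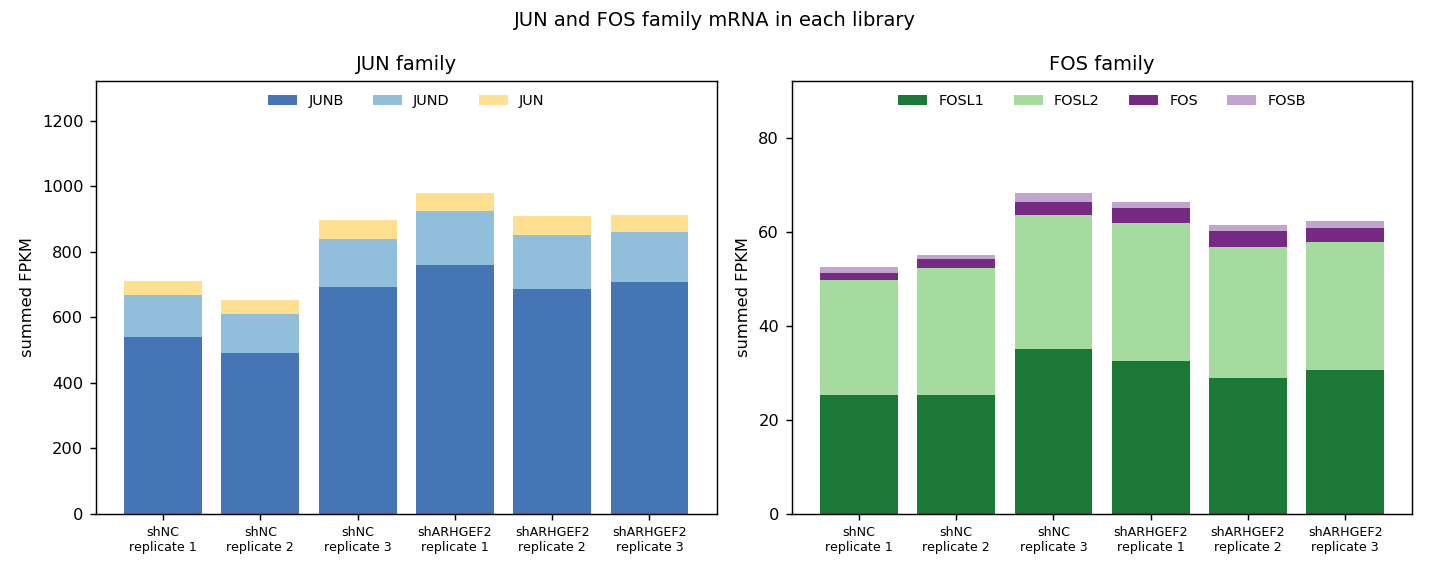
Summed FPKM of the 3 JUN genes (left) and the 4 FOS genes (right) in each library, as bars stacked by gene on linear axes from 0. The JUN sums lie between 653 and 898 FPKM in shNC and between 911 and 979 FPKM in shARHGEF2, whereas the FOS sums overlap.

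IER3, an early response gene tied to survival and to ERK signalling, had the largest fitted difference of the 10. It was listed at 381, 340 and 517 FPKM in shNC and at 668, 705 and 659 FPKM in shARHGEF2. All knockdown libraries lay above all controls, of which shNC replicate 3 was the highest. The mean went from 413 ± 92.6 to 677 ± 24.2 FPKM (SD, n = 3), a ratio of 1.64. The log2 difference of 0.73 (SE 0.14, interval 0.41 to 1.06) missed the threshold (adjusted p = 0.105 in limma, exact permutation p = 0.1), and passed it without shNC replicate 3, at 0.91 (SE 0.09, adjusted p = 0.0171 in limma). With any other single library left out, the adjusted p in limma lay between 0.205 and 0.288. The antisense gene IER3-AS1, which overlaps IER3 on the other strand, was at 0.135 to 3.59 FPKM and highest in shNC replicate 3. IER3 and JUNB, the most abundant of the 10, did not shift by the same factor. The ratio of JUNB to IER3 was 1.40 ± 0.0554 in shNC and 1.06 ± 0.0816 in shARHGEF2 (SD, n = 3), without overlap, and this pair was chosen after its values were seen.

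EGR1, a zinc finger factor and the only one of the 8 genes searched whose promoter window held CArG boxes, was listed at 3.49, 4.07 and 3.75 FPKM in shNC and at 3.36, 1.84 and 3.15 FPKM in shARHGEF2. Every knockdown library was below every control library, by little for shARHGEF2 replicate 1 and by most for replicate 2. Unlike the other 9 genes, EGR1 was not highest among controls in shNC replicate 3. The mean was 3.77 ± 0.288 FPKM in shNC and 2.78 ± 0.822 FPKM in shARHGEF2 (SD, n = 3). Its log2 difference was -0.36 (SE 0.17, interval -0.75 to 0.03, adjusted p = 0.408 in limma, exact permutation p = 0.1), and it was -0.16 without shARHGEF2 replicate 2.

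IER2, a small nuclear protein gene of the early response, was the most uneven of the 10. It was listed at 44.6, 40.2 and 47.7 FPKM in shNC and at 15.7, 47.2 and 47.9 FPKM in shARHGEF2. A single library, shARHGEF2 replicate 1, was far below all others, which lay close together. The log2 difference of -0.41 (SE 0.45, interval -1.54 to 0.73, limma, adjusted p = 0.768) turned to 0.11 without that library and was -0.66 and -0.67 without shARHGEF2 replicate 2 or 3. A library at least 2-fold from both others of its group was found for 2.53% of all tested genes, and 98.4% of tested genes spread less within groups than IER2.

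**Figure D3:**
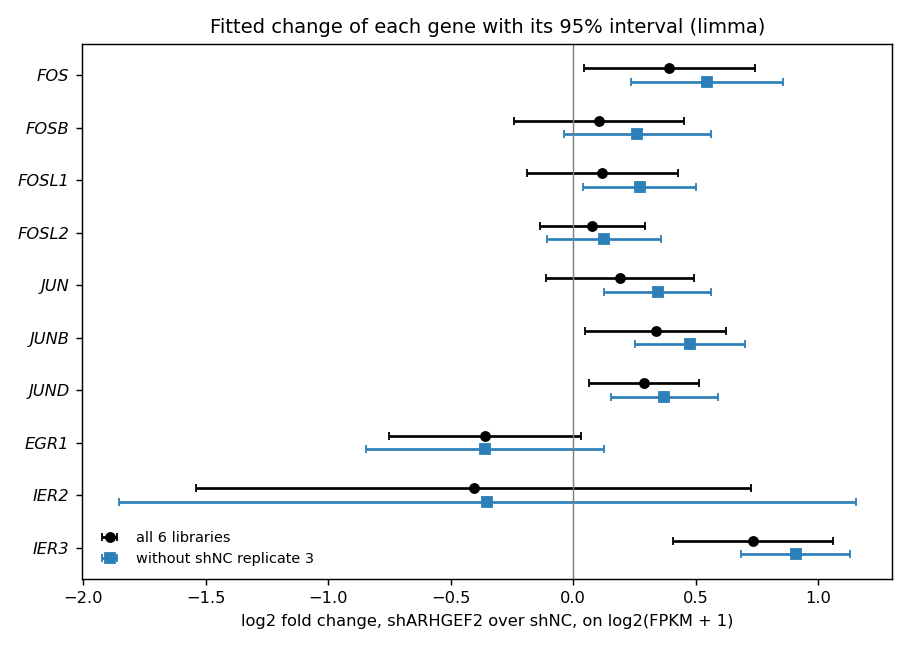
Fitted log2(FPKM + 1) differences (shARHGEF2 minus shNC) of the 10 genes with their 95% intervals, with all 6 libraries and without shNC replicate 3. With all libraries IER3 is at 0.73 and the others lie between -0.41 and 0.39, and without shNC replicate 3 IER3 is at 0.91.

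The control libraries did not stand level for these genes. shNC replicate 3 was the highest shNC library for 9 of 10, against 29.2% of all tested genes, and the highest of all 6 libraries for FOSB, FOSL1 and JUN. Relative to the mean of shNC replicates 1 and 2, it stood 1.75-fold for FOSB, 1.59-fold for FOS, 1.43-fold for IER3 and 0.993-fold for EGR1. Measured from the same mean on the log2(FPKM + 1) scale, the median of the 10 genes was 0.44 in shNC replicate 3 and 0.35, 0.33 and 0.28 in the shARHGEF2 libraries. The median of all tested genes was -0.01 in shNC replicate 3 and -0.06, 0.03 and 0.01 in the shARHGEF2 libraries. By this median shNC replicate 3 stood with the knockdown libraries, but single genes differed. For IER3 and JUND it lay between the other controls and every knockdown library, and for EGR1 it lay between the other controls.

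Without shNC replicate 3, all knockdown libraries stood above both remaining controls for 8 of 10 genes, against 18.2% of all tested genes. The exceptions were EGR1 and IER2. Since the omitted library was the highest control for 9 of the 10 genes but for 29.2% of all genes, its omission raises the count for the 10 genes by construction, and nothing is read from the comparison of these shares. The same holds for the values that follow. In limma, 1 of 10 then passed (IER3, against 0.83% of all tested genes), and 6 of 10 had an unadjusted p under 0.05, against 16% of all tested genes. The log2 difference was 0.55 for FOS (adjusted p = 0.115), 0.48 for JUNB (0.0762), 0.37 for JUND (0.122) and 0.34 for JUN (0.141), all in limma. What sets shNC replicate 3 apart was not tested.

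**Figure D4:**
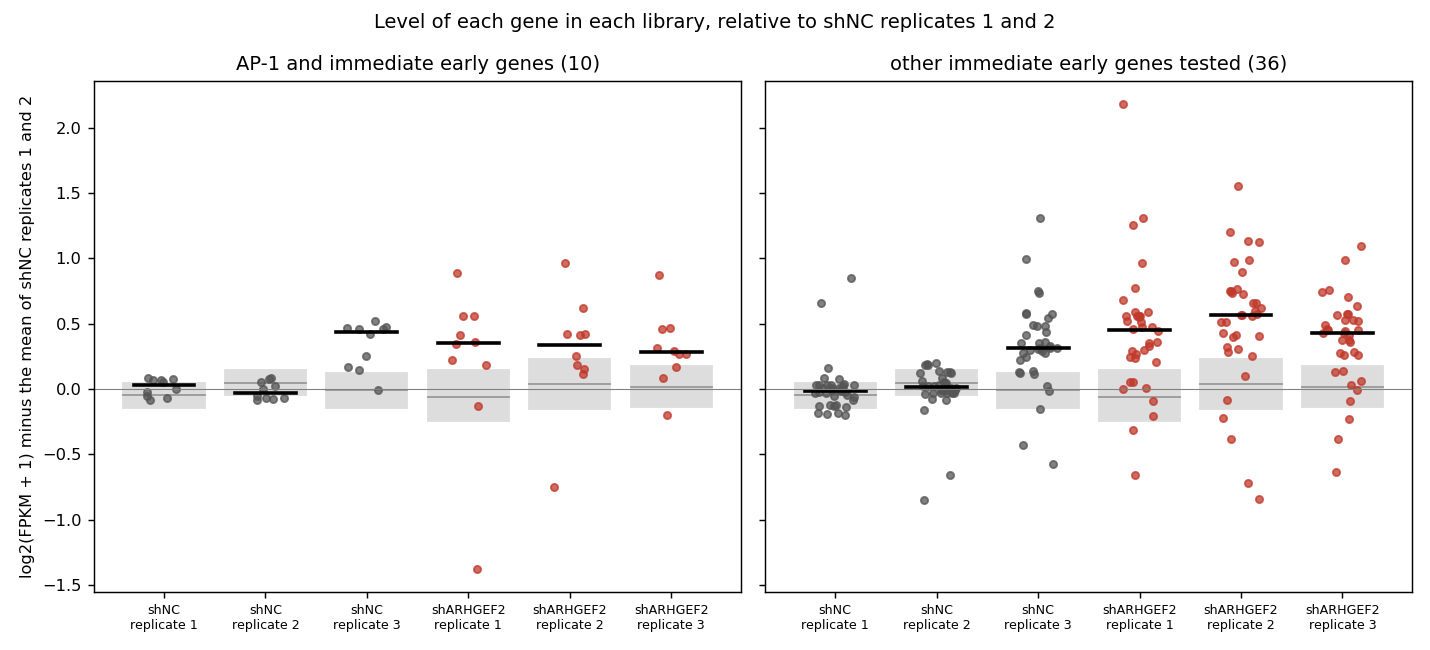
Difference of each gene in each library from the mean of shNC replicates 1 and 2, on the log2(FPKM + 1) scale, for the 10 genes (left) and 36 other immediate early genes (right). Points are genes, black bars their median, and grey boxes the quartiles of all tested genes with their median as a line. The median of shNC replicate 3 is 0.44 on the left and 0.31 on the right, against -0.01 for all tested genes.

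The rest of the early response was taken from a list of 40 other immediate early genes, of which 36 were tested. In limma 0 of 36 passed, 17 were higher and 2 lower at an unadjusted p under 0.05, and 31 had a positive difference. Over all tested genes 0.277% passed, 8.1% were higher and 5.55% lower at an unadjusted p under 0.05, and 49.6% had a positive difference. This list was chosen with earlier results of these data known, so nothing is read from the comparison of these shares. The median log2 difference of the 36 genes was 0.36, against 0.16 for the 10 genes and -0.00 for all genes tested. DUSP1, the phosphatase that switches off MAP kinases, was at 94.9, 98.0 and 117 FPKM in shNC and at 138, 138 and 139 FPKM in shARHGEF2 (log2 difference 0.42, SE 0.10, limma, adjusted p = 0.126). KLF2, a zinc finger factor, was at 1.37, 1.103 and 1.77 FPKM in shNC and at 2.37, 2.76 and 2.77 FPKM in shARHGEF2 (log2 difference 0.60). HBEGF, a ligand of the EGF receptor, was at 1.33, 1.77 and 1.52 FPKM in shNC and at 2.75, 4.03 and 2.57 FPKM in shARHGEF2 (log2 difference 0.68). The groups were apart for each of these, and KLF2 and HBEGF too had an adjusted p of 0.126 in limma.

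As with the 10 genes, shNC replicate 3 was the highest control for 30 of these 36, against 29.2% of all tested genes. Without it, 3 of 36 passed in limma, against 0.83% of all tested genes, and here too the omission favours higher calls by construction. They were NR4A1, an orphan nuclear receptor (log2 difference 1.19, adjusted p = 0.00966), ZFP36, which speeds the decay of AU-rich mRNAs (1.03, adjusted p = 0.0164), and DUSP1 (0.52, adjusted p = 0.0489). With all 6 libraries the log2 differences were 0.86 for NR4A1 (adjusted p = 0.247 in limma) and 0.78 for ZFP36 (adjusted p = 0.158 in limma). NR4A1 was at 16.8, 16.6 and 34.2 FPKM in shNC and at 41.3, 39.8 and 36.8 FPKM in shARHGEF2. ZFP36 was at 15.2, 14.5 and 25.6 FPKM in shNC and at 29.8, 33.7 and 30.4 FPKM in shARHGEF2.

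Other bZIP genes made up a list of 23, of which 22 were in the table and 18 were tested. They are called bZIP partners here, although not all of them are known to pair with FOS or JUN. In limma 0 of 18 passed, 5 were higher and 0 lower at an unadjusted p under 0.05, and their median log2 difference was 0.10. Over all tested genes 0.277% passed, and 8.1% were higher and 5.55% lower at an unadjusted p under 0.05. This list too was chosen with earlier results of these data known. MAFA, a large MAF protein, was at 1.27, 1.33 and 1.96 FPKM in shNC and at 4.19, 3.46 and 3.51 FPKM in shARHGEF2. The groups were well apart, and the log2 difference of 0.91 (SE 0.14) lay at the threshold, with an adjusted p of 0.0501 in limma, which lay between 0.0342 (without shNC replicate 3) and 0.167 (without shNC replicate 1) when 1 library was left out. CREM, a factor of the cAMP response, was at 2.18, 2.38 and 2.34 FPKM in shNC and at 3.24, 4.54 and 4.16 FPKM in shARHGEF2 (log2 difference 0.59, limma, adjusted p = 0.126). NFE2L1, a factor of the proteasome response, had a log2 difference of 0.29 (limma, adjusted p = 0.304).

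The kinases and factors that act on the 10 genes or their proteins formed a list of 29, of which 24 were tested. In limma 0 of 24 passed, 1 was higher and 0 lower at an unadjusted p under 0.05, 12 had a positive difference, and the median was 0.01. Over all tested genes 0.277% passed, 8.1% were higher and 5.55% lower at an unadjusted p under 0.05, and 49.6% had a positive difference. The one with the lowest p was MAP2K1, the MEK1 kinase, with a log2 difference of 0.24 (adjusted p = 0.319 in limma). MAPK14, the p38 kinase, was at 6.22, 7.67 and 3.02 FPKM in shNC and at 2.76, 3.52 and 3.29 FPKM in shARHGEF2. Here too shNC replicate 3 lay with the knockdown libraries. The log2 difference of -0.60 (adjusted p = 0.384) became -0.92 without this library (adjusted p = 0.0494, limma, and up to 0.641 with another library left out). Leaving out the control nearest to the knockdown libraries favours a lower p by construction, so nothing is read from this change. MEF2D, a MADS box factor, had a log2 difference of 0.26 (adjusted p = 0.404 in limma).

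Genes known as targets of AP-1 or EGR1 made up a list of 34, of which 31 were in the table and 23 were tested. In limma 2 of 23 passed, 6 were higher and 2 lower at an unadjusted p under 0.05, 12 had a positive difference, and the median was 0.05. Over all tested genes 0.277% passed, and 8.1% were higher and 5.55% lower at an unadjusted p under 0.05. Like the other lists, this one was chosen with earlier results of these data known, so nothing is read from the comparison of these shares. IL11, a cytokine of the interleukin-6 family, was at 8.44, 6.90 and 9.40 FPKM in shNC and at 23.5, 22.7 and 23.2 FPKM in shARHGEF2. It rose by 1.39 on the log2 scale (SE 0.12, limma, adjusted p = 0.00479), a call that held with any 1 library left out and was lost with the replicate block (adjusted p = 0.0859) and with no filter on low values (0.155). S100A9, a calcium-binding protein of inflammation, was at 6.13, 6.47 and 6.79 FPKM in shNC and at 13.2, 15.2 and 13.8 FPKM in shARHGEF2, with groups well apart. It rose by 1.01 (SE 0.10, limma, adjusted p = 0.0114), a call that was lost without shARHGEF2 replicate 3 (adjusted p = 0.0812), with the replicate block (0.124) and with no filter (0.178). F3, the tissue factor that starts coagulation, was at 15.4, 19.95 and 13.6 FPKM in shNC and at 6.44, 7.85 and 8.84 FPKM in shARHGEF2 (log2 difference -0.98, limma, adjusted p = 0.0504, and 0.0434 to 0.167 with 1 library left out). These targets therefore stood on both sides, and most did not pass.

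**Figure D5:**
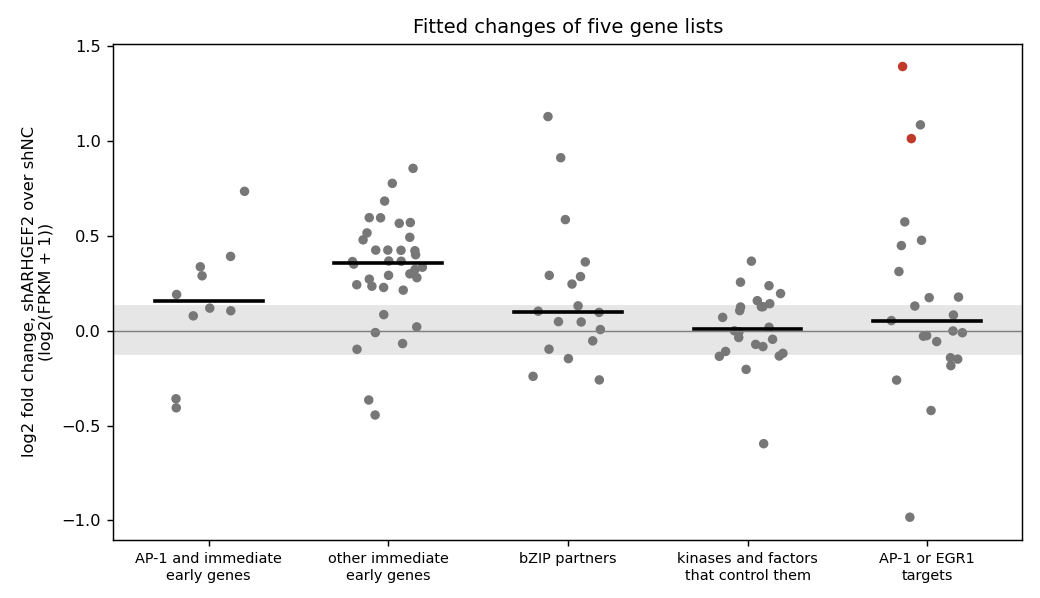
Fitted log2(FPKM + 1) differences (shARHGEF2 minus shNC) of the tested genes of 5 lists. Points are genes, red where the adjusted p of limma is under 0.05 (IL11 and S100A9), black bars are the medians of the lists, and the grey band spans the quartiles of all tested genes (-0.13 to 0.13). The medians are 0.16 for the 10 genes, 0.36 for other immediate early genes, 0.10 for bZIP partners, 0.01 for kinases and factors and 0.05 for targets.

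The values of 5 of the 10 genes may include reads from a gene that overlaps them (FOSB with ERCC1, FOSL2 with FLJ31356 and AC104695, JUNB with HOOK2, IER2 with AC011446, and IER3 with IER3-AS1). HOOK2, at 3.20 to 3.95 FPKM, was far below JUNB, while ERCC1, at 8.58 to 10.5 FPKM, was above FOSB in every library. The median GC content of the 10 genes was 58.4%, against 51.6% for all tested genes, and the libraries differed along GC content. With that trend removed, the log2 difference went from 0.29 to 0.20 for JUND, from 0.34 to 0.27 for JUNB, from 0.12 to 0.07 for FOSL1 and from 0.73 to 0.70 for IER3. The other positive differences shrank too. The negative ones grew in size, from -0.36 to -0.37 for EGR1 and from -0.41 to -0.47 for IER2. The adjusted p of IER3 went from 0.105 to 0.0866 in limma, and 0 of the 10 genes passed.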

How the data were processed

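Poly(A) RNA of HepG2 cells was sequenced as 6 strand-marking (dUTP) paired-end libraries, 3 shNC and 3 shARHGEF2, grouped by their titles. The deposited table holds the authors' FPKM values per gene, which were used without further scaling. The submitters' processing notes name cutadapt 1.9, HISAT2 2.0.4, UMI-tools, StringTie 1.3.4d, DESeq2, edgeR and the build hg19 without roles or order, and the annotation, and whether counting used strand, are not given in the sources used here. The table has no coordinates, so positions come from GRCh38 (GENCODE 29, RefSeq GRCh38.p14). Its columns of fold changes, p-values, q-values and regulation hold the authors' own comparison and were not used.

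Genes whose mean reached 0.5 FPKM were tested with limma 3.58.1 (R 4.3.3, trend and robust eBayes with statmod 1.5.0) on log2(FPKM + 1), shARHGEF2 against shNC over the 6 libraries, and p-values were adjusted by Benjamini-Hochberg over 12291 genes. The pseudocount of 1 understates the change of low genes. Single genes were also compared by exact two-sided permutation of the libraries (20 splits). The test was also run on simulated data with independent noise for each gene and library. Such data cannot show how the test behaves where 1 library shifts many genes together. The genes and lists were chosen with earlier results of these data known. Named are all 10 genes, in each list every gene that passed and the 3 with the lowest p, the targeted gene, and cell line markers. NR4A1, ZFP36, CYR61, CTGF, SGK1, SRF, DDIT3, CXCL8 and the overlapping genes were named after their values were seen. CYR61, CTGF, MKL1 and MKL2 are listed as CCN1, CCN2, MRTFA and MRTFB in newer nomenclature.

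Read pairs per library are not given, and were estimated from the spacing of FPKM times length among low genes (35.5% to 38.5% of low values within 0.1 pairs of a whole number, against 20% by chance). No count test was run and no counting interval is given. Other settings tried were the replicate number as a block, 0.1 as the pseudocount, all genes listed above 0, a stricter filter (1 FPKM or more in at least 3 libraries), quantile and size factor scaling, plain eBayes variances, a loess correction for GC content (span 0.3), and the omission of each library. Python 3.11.15, pandas 2.3.3, numpy 2.4.6, scipy 1.17.1 and matplotlib 3.10.9 were used.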

Additional observations from a re-analysis of the deposited data

How the results depend on the processing

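The genes called over all 12291 genes depended on the setting: 34 became 0 with the replicate block (1976 at an unadjusted p under 0.05), 1 with no filter, 54 with at least 1 FPKM in 3 or more libraries, 19 with quantile normalization and 7 without trend or robust variances. Leaving out 1 library gave 6 (without shARHGEF2 replicate 3) to 102 (without shNC replicate 3). ARHGEF2 kept its log2 fold change of -1.47 but lost its call with the replicate block (adjusted p = 0.0716 in limma) and with no filter (0.0701). Of the 10 genes, 0 passed in every alternative except without shNC replicate 3, where 1, IER3, did, so leaving out 1 library gave 0 to 1. The other immediate early genes gave 0 to 3 when 1 library was left out, the bZIP partners 0 to 1, the kinases and factors 0 to 1 and the targets 1 to 5 (main value 2). The upper value in each case came without shNC replicate 3, where 0.83% of all tested genes passed, and the 1 target without shARHGEF2 replicate 3. One bZIP partner passed (1 in place of 0) with at least 1 FPKM in 3 or more libraries and 1 with the GC trend removed, and 0 targets passed with the replicate block or with no filter.

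Of the 10 genes, 8 kept their direction in all 14 alternatives. With 1 library left out, FOSB ranged from -0.0068 (without shNC replicate 2) to 0.26 and IER2 from -0.67 to 0.11 (without shARHGEF2 replicate 1). IER3 ranged from 0.61 to 0.91 and EGR1 from -0.47 to -0.16. The cause of these changes was not tested beyond the library or filter named. The replicate numbers paired the libraries in part. Residual correlations of libraries with the same number were 0.184, 0.159 and -0.105. Replicates 1 and 2 taken crosswise gave -0.221 and -0.206, and 4 of 6 libraries correlated best with their own number. The block changed errors and p-values but not the log2 differences, so the calls lost with it remain a limit.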

Other observations

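A few immediate early genes stood on the other side from the rest, and were picked for this after their values were seen. CYR61, a matricellular protein gene and a known target of SRF and YAP, was at 68.6, 71.3 and 95.2 FPKM in shNC and at 60.5, 59.8 and 59.6 FPKM in shARHGEF2, so that the groups were apart while shNC replicate 3 was again the highest control. Its log2 difference was -0.37 (SE 0.13, limma, adjusted p = 0.257). SGK1, a serum and glucocorticoid induced kinase, was at 8.58, 10.6 and 6.84 FPKM in shNC and at 5.68, 5.40 and 7.10 FPKM in shARHGEF2 (log2 difference -0.44, limma, adjusted p = 0.284), with overlap. Neither passed. SRF itself, also named after its values were seen, was at 25.5, 23.5 and 26.1 FPKM in shNC and at 23.2, 23.0 and 21.9 FPKM in shARHGEF2 (log2 difference -0.13, limma, adjusted p = 0.564). CTGF, of the same list as CYR61, was at 4.71, 4.86 and 5.75 FPKM in shNC and at 5.01, 5.21 and 5.32 FPKM in shARHGEF2. Its groups overlapped (log2 difference 0.02, limma, adjusted p = 0.970).

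DDIT3, the CHOP factor of the stress response and a bZIP protein, had the widest spread of its list. It was at 8.77, 7.73 and 15.2 FPKM in shNC and at 13.8, 39.0 and 23.5 FPKM in shARHGEF2, with a log2 difference of 1.13 (limma, adjusted p = 0.336) and overlapping groups. It too was picked after its values were seen, as was CXCL8, a chemokine gene of the target list. CXCL8 was at 46.1, 45.3 and 104 FPKM in shNC and at 104, 151 and 136 FPKM in shARHGEF2. Its log2 difference was 1.09 (limma, adjusted p = 0.277) with all libraries and 1.47 (adjusted p = 0.0175) without shNC replicate 3. This was the control nearest to the knockdown libraries, so its omission favours a lower p by construction, and nothing is read from it.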
